A study of Mus musculus with 9 samples.

Results

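The baseline miRNA cargo of small extracellular vesicles (smEVs) released by wild-type kidney medullary (KM) cells was described from 3 libraries. The members were all miRNA entries of the deposited count table with at least 1 count in any of the 3 wild-type (WT) columns, which gave 330 of the 1164 entries. In the whole series of 9 libraries, 469 entries had a count. The study compared smEV pellets of WT, Bbs4 knock-out and Bbs6 knock-out KM lines, with 3 libraries for each line, and no comparison between genotypes is made here.

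All 3 WT libraries came from the KM control line, whose genotype the labels give as wild-type. KM cells are immortalised cultures from the mouse kidney medulla, and every culture of the series was grown to confluency and then kept 24 h in medium without serum. Primary cilia are antenna-like organelles whose internal trafficking uses the BBSome as an adaptor. The study withdrew serum to halt the cell cycle and so induce these cilia. It reported that serum lowered ciliation in the knock-out lines but not in the control line. Vesicles were pelleted from the culture supernatant by differential centrifugation. The WT libraries are repeats of a single line, so their spread holds no difference between animals or between lines. The columns are numbered 1, 3 and 4 in the deposited table, whereas the labels count the same group from 1 to 3, and the numbers of the table are used here for the libraries.

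A miRNA is a single-stranded RNA cut from a hairpin precursor by Drosha and Dicer. It guides an Argonaute protein to messenger RNAs that pair with its seed, bases 2 to 8 from the 5′ end, and so lowers the translation and stability of these messengers. Either arm of the hairpin, 5p or 3p, can give the mature form, and miRNAs with the same seed are grouped in a family because they share most targets. Small vesicles, including exosomes from multivesicular bodies and vesicles shed from the plasma membrane, carry miRNAs out of the cell and can deliver them to other cells.

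The 10 most abundant entries are shown first because together they held 55.8% of the counts. Sequences were taken from RefSeq (GRCm38.p6), in which 281 of the 330 entries, with 97.5% of the counts, had a match. In each sequence, written 5′ to 3′, capitals mark the seed.
miR-21a-5p: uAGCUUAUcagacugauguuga
miR-182-5p: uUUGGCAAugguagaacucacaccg
let-7f-5p: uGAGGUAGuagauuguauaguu
miR-6240: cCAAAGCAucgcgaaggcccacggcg
let-7c-5p: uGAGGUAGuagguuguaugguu
miR-6538: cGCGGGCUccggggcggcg
miR-183-5p: uAUGGCACugguagaauucacu
let-7a-5p: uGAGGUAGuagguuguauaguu
miR-5126: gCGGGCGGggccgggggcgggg
miR-10a-5p: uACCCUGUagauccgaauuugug

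The table does not record which arm was counted. For 35 of the entries the name gives the arm, 13 of them by a locus number of their own and 22 because the other arm carries one, and for 49 only a single mature form is annotated. For a further 59 entries, among them miR-21a, miR-182, miR-183 and miR-10a, the arm shown is the one usually found as the major form, from general knowledge and not from these data. The 143 entries with an assigned sequence held 94.2% of the counts.

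The genes of these miRNAs are spread over the genome (GRCm38.p6, GENCODE vM21). miR-21a (chr11:86584120-86584141, minus strand) lies in an exon of Vmp1, a gene of autophagosome formation. miR-182 (chr6:30165962-30165986) and miR-183 (chr6:30169711-30169732) lie on the minus strand outside any other annotated gene. let-7f is found at chr13:48537889-48537910, minus strand, in an exon of the long non-coding RNA 6720427I07Rik, which also holds let-7a (chr13:48538239-48538260), and at chrX:151912353-151912374, plus strand, in an intron of the ubiquitin ligase gene Huwe1. let-7c lies on the plus strand at chr16:77599672-77599693, in an intron of Mir99ahg, and at chr15:85706616-85706637, in an exon of Lncppara. miR-10a (chr11:96317186-96317208, plus strand) overlaps no other annotated gene. Of the high-numbered entries, miR-6240 (chr5:114851973-114851998, plus strand) overlaps no other gene, miR-6538 (chr12:26414970-26414988, minus strand) lies in an intron of Rnf144a, and miR-5126 (chr1:84695890-84695911, plus strand) lies opposite an exon of Dner.

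Every library was led by miR-21a. miR-21 is widely expressed, rises in injured and fibrotic kidneys, and represses Pdcd4. It had 7251 counts in library 1, 12739 in library 3 and 15007 in library 4, which is 11.3%, 12.0% and 11.5% of the counts, or 11.6% ± 0.359 (SD, n = 3). The 3 values lay close together, and no other miRNA reached the lowest of them. The exact (Clopper-Pearson) 95% interval of its share in library 1, which covers counting error only, was 11.1% to 11.6%.

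Totals were 64118, 106217 and 130905 counts, so library 1 was the shallowest and library 4 the deepest, and miRNAs are given as shares of their own library. The values are shares of the miRNA counts alone, not amounts per vesicle or per cell. Each molecule gives a single read whatever the length of the miRNA, so no length scaling was needed. How well each sequence was captured in the library preparation was not tested. A count of 0 allows up to 3 counts, which is 46.8, 28.2 and 22.9 CPM (counts scaled to library size) in libraries 1, 3 and 4.

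miR-182, of the miR-183/miR-96/miR-182 cluster that is strongly expressed in sensory organs, was second. It had 4849, 8212 and 11609 counts in libraries 1, 3 and 4 and a share of 8.05% ± 0.710 (SD, n = 3). All 3 of its values lay below those of miR-21a and above those of every miRNA that followed. let-7f, a member of the let-7 family of differentiation-associated miRNAs, followed with 4232, 7009 and 9420 counts and 6.80% ± 0.344.

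Below the first 3, the order was less firm. miR-6240 (6.63%, 4.39% and 4.51% in libraries 1, 3 and 4) was just above let-7f in library 1 and was below it in the other libraries. let-7c was at 4.51% ± 0.299 and let-7a at 3.78% ± 0.174, both narrow. miR-183 had 3.06%, 4.88% and 4.39%, lowest in library 1. miR-10a, which is encoded among the Hoxb genes, had 2.46%, 5.17% and 3.24%, highest in library 3, and was the least even of the 10. miR-30a, a miRNA abundant in kidney epithelia, followed at 3.34% ± 0.232.

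**Figure D1:**
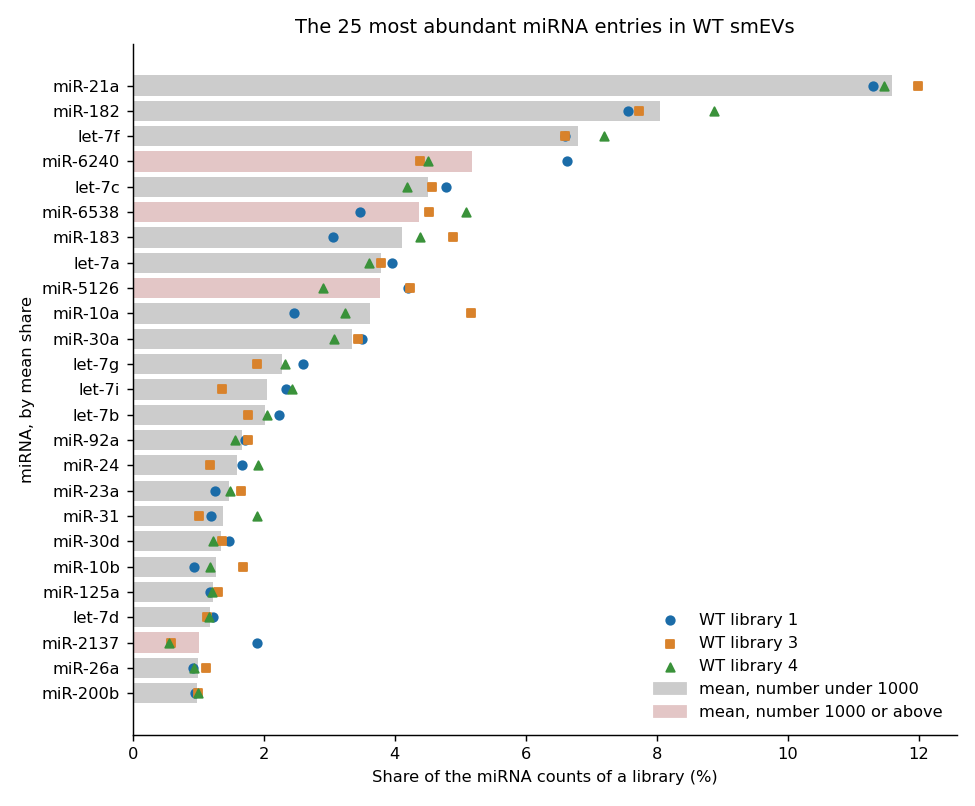
Horizontal bars give the mean share of the miRNA counts (%) of the 25 most abundant entries in WT smEVs, and points give libraries 1, 3 and 4. miR-21a stood at 11.3% to 12.0% in every library, and miR-10a and miR-2137 had the points farthest apart relative to their means.

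Of the 25 pairs of neighbours among the first 26 entries, 4 had ranges over the libraries that did not overlap. These were miR-21a over miR-182, miR-182 over let-7f, miR-30a over let-7g and let-7b over miR-92a. In the other 21 pairs the ranges overlapped, so their order is not settled by 3 libraries. The sets were nonetheless alike. Of the 10 most abundant entries of each library, 8 were common to all 3 libraries, and miR-10a, miR-30a and miR-5126 were not. Of the 25 most abundant, 20 were common.

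A few miRNAs held most of the counts. The first 5 entries held 36.1%, the first 25 held 79.6%, the first 50 held 93.9% and the first 100 held 98.6% of the mean share. It took 9 entries to reach 50% of the counts, 39 to reach 90% and 113 to reach 99%. The 23 entries with a mean share of at least 1% held 77.6%. The effective number of miRNAs, the number of equally abundant miRNAs that would have the same Shannon entropy, was 41.5, 38.8 and 40.1 in libraries 1, 3 and 4, or 40.1 ± 1.35 (SD, n = 3). The libraries were thus close in evenness although they differed in depth.

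**Figure D2:**
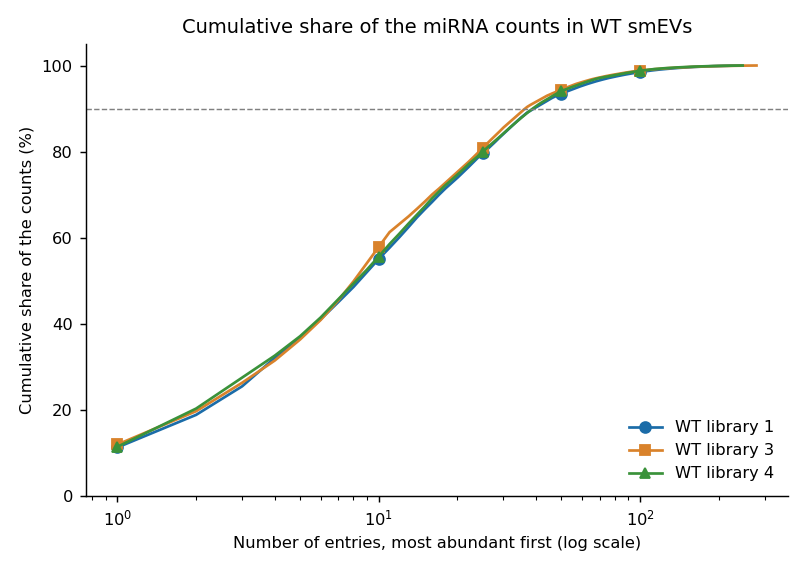
Cumulative share of the miRNA counts (%) against the number of entries, most abundant first in each library (log scale), for WT libraries 1, 3 and 4, with a dashed line at 90%. The curves nearly coincide and cross 90% at 40, 37 and 39 entries.

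The rest of the 330 entries formed a long tail. There were 44 entries with at least 1000 counts over the 3 libraries, 59 with at least 100 but under 1000, 98 with at least 10 but under 100 and 129 with fewer than 10, of which 33 had a single count. Libraries 1, 3 and 4 held 244, 279 and 247 entries. Of all members, 194 were counted in every library, 52 in a pair of libraries and 84 in only 1, where the highest count was 9. The 194 common entries held 99.8% of the mean share and the 84 entries of a single library held 0.0679%. With a minimum of 3 counts in every library, 170 entries remained. Thinned to the 64118 counts of the shallowest library, libraries 3 and 4 would be expected to hold 258 and 235 entries, against 244 in library 1. The remaining 834 entries of the table stood at 0 in all WT libraries. Over the 3 WT libraries together, no count allows up to 9.96 CPM.

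The let-7 family held the largest summed share of the families examined. Its members repress Lin28, Hmga2 and Ras messengers and accumulate as cells differentiate. All 11 members in the table were counted, 10 of them in every library, and they summed to 25.1%, 22.3% and 24.3% of libraries 1, 3 and 4, or 23.9% ± 1.43 (SD, n = 3). The family was thus slightly lower in library 3, where miR-10a was highest. The sequences of the other members with at least 50 counts in every library are given because, with let-7a, let-7c and let-7f above, they show how the family varies outside the seed.
let-7b-5p: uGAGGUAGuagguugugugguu
let-7d-5p: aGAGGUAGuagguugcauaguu
let-7e-5p: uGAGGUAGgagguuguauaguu
let-7g-5p: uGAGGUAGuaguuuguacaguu
let-7i-5p: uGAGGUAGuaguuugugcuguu
miR-98-5p: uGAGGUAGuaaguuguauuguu
let-7j: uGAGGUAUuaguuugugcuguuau

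let-7b (chr15:85707325-85707346, plus strand) lies near a let-7c copy in Lncppara, let-7d (chr13:48536078-48536099, minus strand) beside let-7a and let-7f, and miR-98 (chrX:151913229-151913250, plus strand) beside a let-7f copy in Huwe1. let-7e (chr17:17830366-17830387, plus strand) lies in an intron of Spaca6. let-7g (chr9:106178846-106178867, plus strand) lies in an intron of Wdr82, and let-7i (chr10:122985698-122985719, minus strand) in an exon of the pseudogene D630033A02Rik.

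let-7f made up 28.5% of the family. After let-7f, let-7c and let-7a came let-7g at 2.27% ± 0.354, let-7i at 2.04% ± 0.592, let-7b at 2.01% ± 0.240, let-7d at 1.18% ± 0.0445, let-7e at 0.734% ± 0.0971 and miR-98 at 0.424% ± 0.0848 (SD, n = 3). let-7i was the least even of these, with 1503, 1447 and 3177 counts in libraries 1, 3 and 4, and its share was lowest in library 3. let-7k had 2, 1 and 0 counts.

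Of the 55 pairs among the 11 members, 4 differed at a single position, where bases beyond the end of the shorter sequence count as differences. These were let-7a with let-7c, let-7e and let-7f, and let-7b with let-7c. Over their shared length, let-7i with let-7j and let-7b with let-7k also differ at a single base. A misread base could move a count between such members, and how often this occurred was not tested. let-7j (chr3:140028281-140028304, plus strand) had 74, 59 and 199 counts. Its mature form has 24 bases and equals the 22 bases of let-7i except for G8U (let-7i base, position from the 5′ end, let-7j base) and for 2 further bases at the 3′ end. let-7i was 20.3 ± 4.28 (SD, n = 3) times as abundant as let-7j, and both had their highest share in library 4. The change falls in the seed, so let-7j stands outside the family by seed, and the other 10 members, which share GAGGUAG, summed to 23.8% ± 1.39.

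The miR-183/miR-96/miR-182 cluster held 12.3% ± 1.41 (SD, n = 3), nearly all of it from miR-182 and miR-183. The cluster is known from ciliated sensory cells of the ear and retina and from several epithelial tumours. Its hairpins lie within 3820 bases on chromosome 6. The remaining member is shown beside the others because its seed is that of miR-182 in all but the last base.
miR-96-5p: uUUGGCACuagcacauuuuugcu

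miR-96 (chr6:30169506-30169528, minus strand) had 43, 129 and 172 counts in libraries 1, 3 and 4. miR-182 was 63.7 to 113 times and miR-183 33.4 to 45.7 times as abundant as miR-96. The ratio of miR-182 to miR-183 was 2.47, 1.58 and 2.02. The members of this cluster are made from a common primary transcript, and their shares spanned a wide range in every library.

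The miR-30 family, which is abundant in podocytes and tubules of the kidney, held 6.38% ± 0.510 (SD, n = 3), and all 5 members were counted in every library. miR-30a made up 52.4% of it, and miR-30d was next with 944, 1452 and 1602 counts (1.35% ± 0.125). The ratio of miR-30a to miR-30d was 2.38, 2.52 and 2.51, the same order in each library. miR-30c was at 0.967% ± 0.176 and miR-30e at 0.666% ± 0.0162, the lowest relative spread of all entries with a mean of at least 50 counts. miR-30b had only 30, 77 and 39 counts. Sequences of miR-30a, miR-30c and miR-30e are shown for their shared seed.
miR-30a-5p: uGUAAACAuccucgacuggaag
miR-30c-5p: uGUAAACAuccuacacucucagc
miR-30e-5p: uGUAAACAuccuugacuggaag

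miR-30a lies at chr1:23272274-23272295 on the plus strand, and miR-30e (chr4:120772660-120772681) and a miR-30c copy (chr4:120769584-120769606) share an intron-bearing host, Nfyc, on the minus strand.

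miR-10a and miR-10b, which are encoded in the Hoxb and Hoxd clusters and repress Hox messengers, share the seed ACCCUGU and differ at a single base outside it.
miR-10b-5p: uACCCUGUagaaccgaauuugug

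They summed to 3.39%, 6.84% and 4.43% of libraries 1, 3 and 4, or 4.89% ± 1.77 (SD, n = 3). miR-10b (chr2:74726074-74726096, plus strand, in introns of Hoxd3 and Hoxd4) had 598, 1782 and 1549 counts. Both miRNAs were highest in library 3 and lowest in library 1, and the ratio of miR-10a to miR-10b stayed at 2.63 to 3.08. The related miR-99b was at 0.976% ± 0.134, miR-100 had 45, 85 and 74 counts, and miR-99a had 0, 1 and 4. With miR-99a, miR-99b and miR-100, whose seed is ACCCGUA, the wider family summed to 4.29%, 8.01% and 5.50%, a mean of 5.93%. The other miRNAs of the Hox clusters were lower, with 253, 261 and 482 counts for miR-196a, 209, 329 and 438 for miR-196b and 32, 63 and 70 for miR-615.

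The miR-200b/miR-200a/miR-429 cluster, which represses Zeb1 and Zeb2 and so maintains the epithelial state, was among the steadiest groups at 1.28%, 1.40% and 1.41% of libraries 1, 3 and 4, or 1.37% ± 0.0743 (SD, n = 3). Its members are shown because their seeds differ at a single base, which places miR-200a in another seed family.
miR-200b-3p: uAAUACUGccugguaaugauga
miR-429-3p: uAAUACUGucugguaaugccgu
miR-200a-3p: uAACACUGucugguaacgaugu

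The hairpins lie within 1846 bases on the minus strand of chromosome 4, miR-200b at chr4:156055685-156055706, miR-200a at chr4:156054911-156054932 and miR-429 at chr4:156053916-156053937, in introns of Ttll10. miR-200b had 609, 1051 and 1300 counts (0.977% ± 0.0240), miR-429 had 110, 187 and 211, and miR-200a had 102, 254 and 339. The ratio of miR-200b to miR-429 was 5.54 to 6.16, and that of miR-200b to miR-200a was 3.83 to 5.97. The second cluster of the family, miR-200c/miR-141, was nearly missing, with 1, 2 and 1 counts for miR-200c and none for miR-141.

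The miR-23/miR-27/miR-24 clusters, a pair of paralogous clusters, held 4.51% ± 0.394 (SD, n = 3). miR-24 had 1.66%, 1.18% and 1.92% of libraries 1, 3 and 4, and miR-23a had 1.26%, 1.65% and 1.48%. Their order was reversed in library 3. miR-23a was 4.26 to 4.77 times as abundant as its paralogue miR-23b, whereas miR-27b was 1.68 to 2.08 times as abundant as miR-27a, so the stronger paralogue came from different clusters.

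The miR-17/miR-92 and miR-106b/miR-25 clusters, which promote cell proliferation downstream of Myc and E2F, held 3.45% ± 0.184 (SD, n = 3), and all 9 members were counted. miR-92a made up 48.5% of this sum, with 1.71%, 1.75% and 1.56% of libraries 1, 3 and 4. It was 36.5 to 47.6 times as abundant as miR-17 and 64.4 to 88.6 times as abundant as miR-19b. Unlike miR-17, miR-92a and miR-19b each have a further copy on the X chromosome, and the counts do not separate the copies. miR-19a had 3, 0 and 1 counts and miR-18a 12, 11 and 15. Of the miR-106b/miR-25 cluster, whose hairpins lie in Mcm7, miR-25 was at 0.803% ± 0.102, miR-93 at 0.705% ± 0.0362 and miR-106b at 0.113% ± 0.0293. The miRNAs with the seed of miR-92a and miR-25, AUUGCAC, summed to 2.48% ± 0.201, and those with the seed of miR-17 and miR-93, AAAGUGC, to 0.936% ± 0.0687.

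The miR-125 family, mammalian relatives of lin-4, held 2.14% ± 0.320 (SD, n = 3). miR-125a was even at 1.23% ± 0.0654, and miR-125b, in the same order of libraries as miR-10a, had 0.619%, 1.12% and 0.827% in libraries 1, 3 and 4. miR-125a (chr17:17830817-17830840), let-7e and miR-99b, are neighbours on chromosome 17, and miR-125a and miR-99b were 1.02 to 1.94 times as abundant as let-7e. The miR-221/miR-222 pair, which represses the cell cycle inhibitor p27, held 1.83% ± 0.180, and the ratio of miR-221 to miR-222 was 0.834 to 1.05.

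The miR-26 family held 1.34% ± 0.124 (SD, n = 3), with 0.990% ± 0.115 for miR-26a. The miR-29 family, which represses collagens, held 0.696% ± 0.0900, of which miR-29a made up 98.4%. miR-29b had 5, 5 and 14 counts and miR-29c 1, 3 and 7. The miR-15/miR-16 family, which represses cyclins and Bcl2, held 0.684% ± 0.120, miR-16 with 259, 402 and 767 counts, and miR-497a and miR-195a had none. The miR-181 family held 0.289% ± 0.0318, of which miR-181a made up 41.6%, miR-181b 40.1%, miR-181d 12.9% and miR-181c 5.41%.

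Outside these families, miR-31 had 765, 1076 and 2492 counts in libraries 1, 3 and 4 (1.37% ± 0.471, SD, n = 3), with its highest share in library 4. Of the 23 entries above 1%, it and the high-numbered entries were the only ones that belonged to no family or cluster listed here besides miR-21a.

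**Figure D3:**
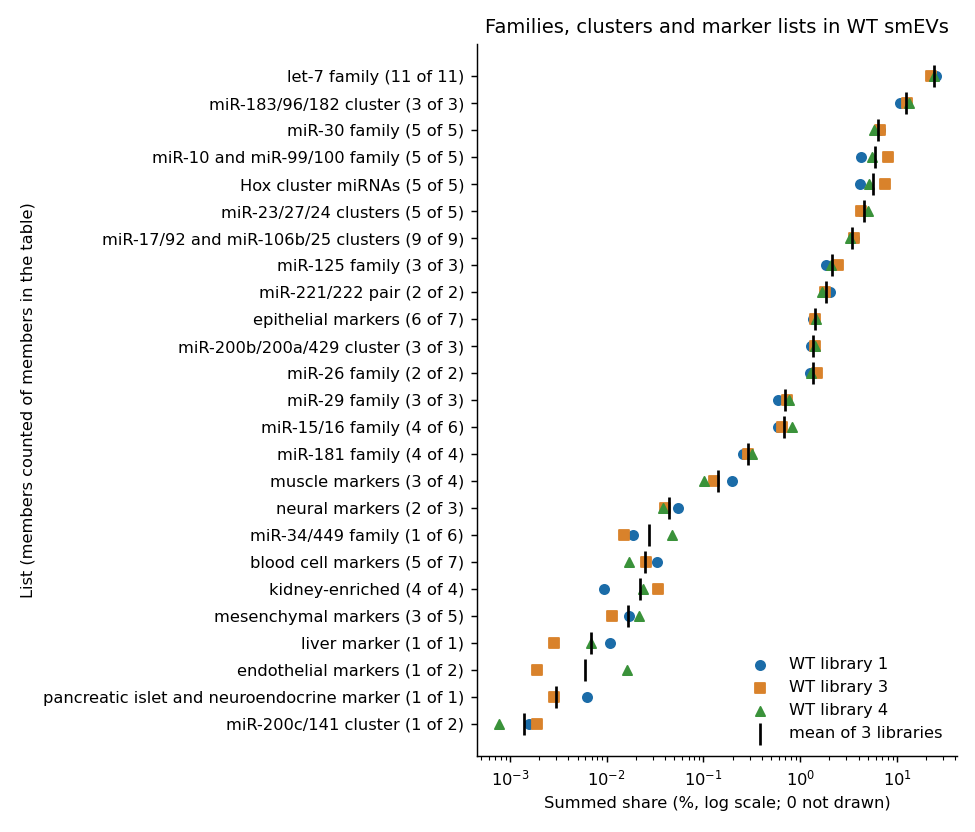
Summed share of the miRNA counts (%, log scale) of each family, cluster and marker list in WT smEVs, by library (points) and as the mean of 3 libraries (vertical tick), with the number of members counted. The let-7 family (23.9%) and the miR-183/miR-96/miR-182 cluster (12.3%) lead, and the marker lists other than the epithelial list lie below 0.2%.

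The label of a kidney medullary line was compared with marker miRNAs of kidney, epithelium and other cell types. Of 7 epithelial markers in the table, 6 were counted, 5 of them in every library, and they summed to 1.34%, 1.43% and 1.45% of libraries 1, 3 and 4 (1.41% ± 0.0548, SD, n = 3). Most of this was miR-200b. miR-203 had 38, 21 and 42 counts, miR-205, a marker of stratified epithelium, had 1, 0 and 0, and miR-141 had none.

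Markers enriched in kidney tissue were sparse. miR-192, miR-194, miR-215 and miR-204 had 73 counts in all and summed to 0.00936%, 0.0339% and 0.0237%, so they lay far below the epithelial list in every library. miR-192 had 4, 18 and 3 counts, miR-194 had 0, 10 and 16, miR-204 had 2, 7 and 12 and miR-215 had 0, 1 and 0. miR-192 and miR-194 are best known from the renal cortex, intestine and liver. In such bulk samples, fewer cells of a type and less RNA per cell cannot be told apart, and the same holds for fewer vesicles and fewer copies per vesicle.

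Markers of other cell types were low. The mesenchymal list summed to 0.0166% ± 0.00507 (SD, n = 3; 0.0113% to 0.0214%), 3 of 5 members counted, with 11, 6 and 22 counts for miR-143 and none for miR-214 and miR-145a. The blood cell list summed to 0.0250% ± 0.00798 (0.0168% to 0.0328%), 5 of 7 counted, with miR-142a and miR-150 at 0. The endothelial miR-126a had 0, 2 and 21 counts, and miR-126b had none. The liver miR-122 had 7, 3 and 9 counts and the islet miR-375 had 4, 3 and 0. The neural list summed to 0.0441% ± 0.00910 (0.0382% to 0.0546%) from miR-9 and miR-128, with miR-124 at 0. All 7 markers of pluripotent cells were at 0.

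The muscle list was higher, at 0.142% ± 0.0502 (SD, n = 3; 0.101% to 0.198%), and 97.1% of it was miR-206, with 119, 136 and 132 counts. miR-206 is known as a miRNA of skeletal muscle. miR-1a had 6, 0 and 0 counts, miR-133a 2, 0 and 0, and miR-133b none, so the other members of the list did not accompany miR-206. Where miR-206 came from was not tested.

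Among miRNAs tied to cilia, the miR-34/miR-449 family, which multiciliated cells need to form their many motile cilia, was represented only by miR-34a. It had 12, 16 and 62 counts in libraries 1, 3 and 4, highest in library 4. miR-34b, miR-34c, miR-449a, miR-449b and miR-449c stood at 0 throughout.

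A group of high-numbered entries stood apart by sequence. miRBase numbers follow the order of discovery, and entries numbered 1000 or above were mostly found by sequencing. Of the 657 such entries in the count table, 15.4% were members, against 45.2% of the 507 lower-numbered entries. The high-numbered entries made up 101 of the 330 members, and 38 of the 101 were counted in every library, against 156 of the 229 lower-numbered members. Their share was highest in library 1, at 17.7%, and over the 3 libraries it was 15.4% ± 2.03 (SD, n = 3). miR-6240, miR-6538, miR-5126 and miR-2137 made up 93.0% of this, and the other 97 held 1.08% ± 0.424 together. The fourth sequence is shown beside the 3 given above for its base composition.
miR-2137: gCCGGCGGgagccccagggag

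Their GC content was 69.2% in miR-6240, 94.7% in miR-6538, 100% in miR-5126 and 85.7% in miR-2137 (chrX:72992113-72992133, plus strand, in an intron of Zfp185). Counted per entry, the median GC content was 57.1% (range 34.8% to 100%) over the 39 entries numbered 1000 or above with an assigned sequence and 43.5% over the 104 lower-numbered entries. Weighted by counts, so that the 4 abundant entries dominate the first group, it was 85.1% and 42.4%. A U as first base, which Argonaute proteins prefer in their guides, was found in 12 of the 39 higher-numbered entries (30.8%) and in 59 of the 104 lower-numbered ones (56.7%). By counts it was found for 86.8% of the counts of the lower-numbered entries and for 1.5% of the counts of the higher-numbered ones, whose 4 most abundant members all begin with G or C. Among the 22 entries without a locus number whose arm is given by the name, so that no assumed arm entered, it was found for 97.7% of the counts. All 39 higher-numbered entries were assigned as a single annotated form, whereas most of the 104 had an arm given by the name or assumed. The groups thus differ also in how sequences were assigned, and the contrasts per entry cannot be separated from this.

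miR-6538 had 2223, 4811 and 6669 counts and miR-5126 had 2699, 4493 and 3797 in libraries 1, 3 and 4. miR-2137 had 1214, 617 and 720 counts, that is 1.89%, 0.581% and 0.550%, and was highest by far in library 1. Further down came miR-5099 (157, 135 and 389 counts), miR-6239 (126, 83 and 62), miR-5119 (121, 28 and 92), miR-5106 (66, 8 and 71), miR-6238 (61, 39 and 43) and miR-6236 (62, 21 and 22). For 10 of the 39 sequences searched, which together held 0.0787% of the counts, the whole mature sequence also occurs in a transcript of GENCODE vM21 not annotated as a miRNA. Examples are miR-5121 in the small nucleolar RNA Snord33 and miR-1291 in Snora34. The 10 include miR-3535, whose match, the small nucleolar RNA Gm24148, is the gene that RefSeq gives for miR-3535 itself. None of miR-6240, miR-6538, miR-5126 and miR-2137 had a match in another transcript. The search could not find near matches or RNAs that GENCODE vM21 does not hold. The study's methods describe removal of ribosomal RNA reads for its separate count of RNA types. No such step is listed for the miRNA counts. Whether the counts of any high-numbered entry came from other RNAs was not tested.

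Where the table gives both arms, the entry of the usual major arm had more counts. For 13 locus-numbered entries, 9 of them with at least 6 counts, the name shows that they are the other arm of a base entry. The base entry had more counts in all 13. A base entry can pool several loci with the same mature sequence, so the ratios below are not always those of 1 hairpin. miR-24-3p was 28.1 times as abundant as miR-24-2-5p over the 3 libraries (range 23.2 to 31.0), and miR-30c-5p was 33.2 times as abundant as miR-30c-2-3p (32.3 to 34.2), both narrow. The ranges were wider for the following pairs. miR-125b-5p was 23.4 times as abundant as miR-125b-1-3p (13.7 to 62.5), and the ratio was 15.6 without library 3 and 45.3 without library 4. let-7a-5p was 235 times as abundant as let-7a-1-3p (155 to 473). miR-196a-5p was 55.3 times as abundant as miR-196a-1-3p (31.6 to 120.5), and 36.7 times without library 4. miR-218-1-3p had 8, 2 and 0 counts against 86, 210 and 225 for miR-218-5p, so that the ratio of the totals, 52.1, was 217.5 without library 1 and 29.6 without library 4. miR-29b was the least one-sided, with 24 counts for the 3p arm and 12 for miR-29b-1-5p. miR-92a-1-5p had 6 counts, all in library 4.

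Some entries, named here for their equal counts after the values were seen, cannot be told apart. let-7a-1 and let-7c-2, which have the same 3p sequence, had the same 12, 26 and 10 counts. miR-101a and miR-101c (35, 70 and 74 counts), miR-374b and miR-374c (25, 52 and 68), miR-486a and miR-486b (7, 10 and 6) and miR-199a and miR-199b (0, 3 and 3) were likewise equal, in the other 6 libraries of the series too. miR-28a and miR-28c had equal counts in libraries 1 and 3 (117 and 203) and 227 against 226 in library 4. The 19 bases of miR-101c lie within the 21 bases of miR-101a-3p, the usual major arm, so these sequences overlap but are not the same. Equal counts in entries of the same or overlapping sequence may be the same reads entered in both, which was not tested for the pairs whose sequences are not shown.

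The libraries agreed closely for abundant miRNAs but differed by more than counting error. Of the 69 entries with a mean of at least 100 counts, 51, 63 and 57 had shares within 1.5-fold in the pairs 1 and 3, 1 and 4, and 3 and 4, and 65, 68 and 67 had shares within 2-fold. The shares of a pair of libraries overlapped by 89.6%, 90.1% and 91.4%. Over all entries the chi-square per degree of freedom was 14.4, 13.0 and 11.9, where counting error alone gives about 1, so no pair is a single library deposited again.

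Across the 228 entries with at least 6 counts in total, Pearson's r of log2 CPM was 0.945, 0.942 and 0.962 and Spearman's rho was 0.903, 0.902 and 0.920 for the pairs in the same order. These describe agreement across miRNAs, which share a library and its depth and are not independent replicates. The biological coefficient of variation, edgeR's estimate of the spread beyond counting error, was 0.362, and it was 0.304 between libraries 3 and 4 alone.

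**Figure D4:**
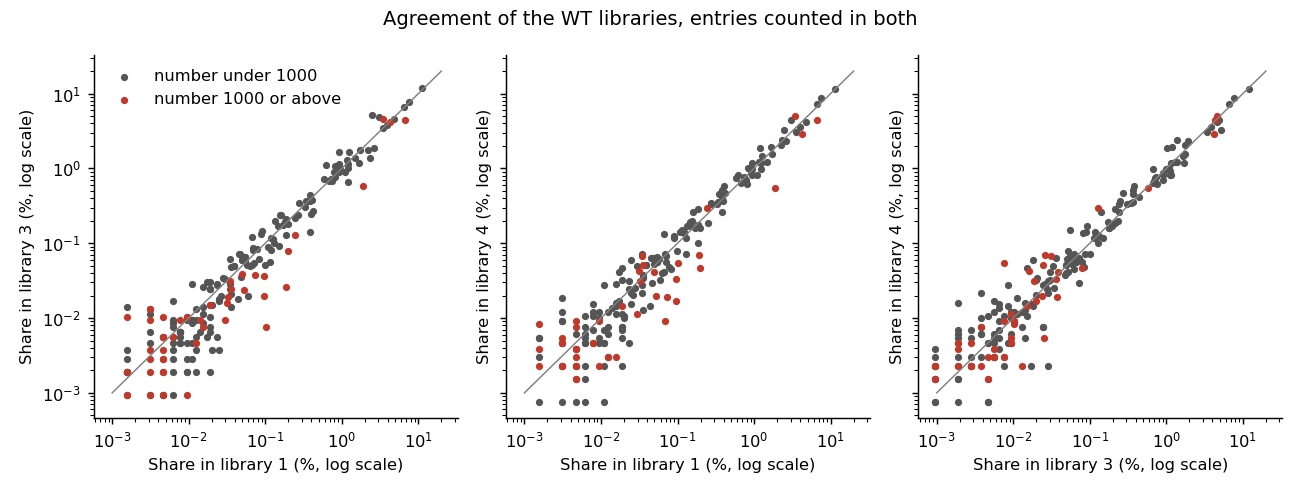
Share of each miRNA (%, log scales) in pairs of WT libraries, for entries counted in both, with entries numbered 1000 or above in red and the line of equal shares in grey. Most points lie near the line above a share of 0.1%, and points scatter widely where few molecules were counted. Some well-counted entries also lie off the line, such as miR-2137 (1.89% in library 1, 0.550% in library 4) and miR-10a (2.46% in library 1, 5.17% in library 3).

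The 88 entries with a mean of at least 50 counts had a median coefficient of variation of 15.8% over the 3 libraries, where counting error gives a median of 5.74%. For 73 of the 88 the coefficient was above the value that counting error gives. Counting error alone would also put some entries above it. The highest share was less than 1.5 times the lowest for 53 of them and at least 2 times for 8. Library 1 had the highest share for 28 entries, library 3 for 29 and library 4 for 31. The median coefficient of variation was 13.7% for the 81 lower-numbered entries and 39.1% for the 7 numbered 1000 or above.

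The steadiest entries were miR-30e, miR-200b, miR-27b, miR-26b and miR-21a, with coefficients of variation of 2.44%, 2.46%, 2.66%, 2.88% and 3.10%. For the first 4 of these the value lay below their counting error of 3.34% to 5.55%. The widest ratios of the highest to the lowest share were 7.16 for miR-5119, 4.15 for miR-6239, 3.44 for miR-2137, 2.75 for miR-7a, 2.74 for let-7j, 2.34 for miR-5099, 2.12 for miR-378a, 2.10 for miR-10a and 1.96 for miR-96, followed by miR-20a with 63, 55 and 104 counts. miR-5119, miR-6239, miR-2137, miR-7a and miR-20a were highest in library 1, the shallowest, and miR-10a in library 3. let-7j, miR-5099, miR-378a and miR-96 were highest in library 4.

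**Figure D5:**
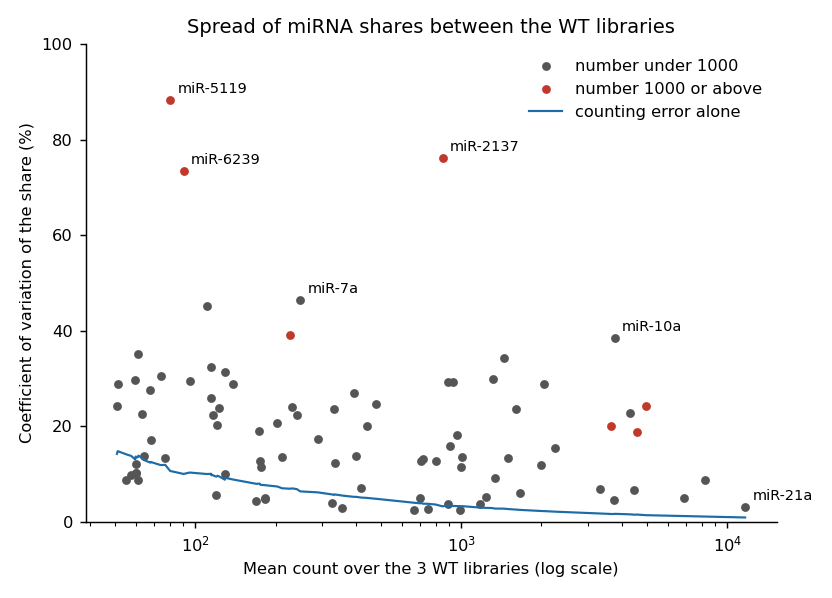
Coefficient of variation (%) of the share over the 3 WT libraries against the mean count (log scale) for 88 entries with a mean of at least 50 counts, with entries numbered 1000 or above in red and the spread that counting error alone gives as a line. Most points lie above the line, and miR-5119, miR-2137 and miR-6239 lie highest.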

How the data were processed

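The series holds 9 small RNA libraries of KM cell smEVs, and the 3 WT libraries were used here. According to the study's methods, the authors trimmed adapters, removed low-quality reads, removed PCR duplicates by unique molecular identifiers, dropped reads under 15 bases and counted reads per miRNA with miRDeep2, and of repeated entries only the largest was kept. The values deposited by the authors are counts that were not normalized. The submitters' processing notes list GRCm38 and cutadapt 1.9. The miRBase release is not given in the sources used here.

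Counts were divided by the total miRNA count of their library, and shares are given as the mean ± SD of the 3 libraries. The members and lists were chosen with earlier results of these data known. The miRNAs named are the 25 most abundant, the members of the lists, the 10 with the widest ratio of shares, the 10 most abundant numbered 1000 or above, and locus-numbered entries with at least 6 counts. A few others were named after their values were seen, for equal counts or a match to another transcript. Exact binomial intervals, exact rarefaction and chi-square values were computed in python 3.11.15 with scipy 1.17.1. The biological coefficient of variation was estimated with edgeR 4.0.16 in R 4.3.3, with TMM scaling and at least 6 counts in total, and DESeq2 1.42.0 gave the alternative size factors. Log2 CPM used a prior count of 2. Both scripts were tested on simulated data. The study describes the pellets as independent preparations. The columns of the table could not be tied to single labelled samples, since their numbers differ from those of the labels. No test between groups was made. Intervals and floors cover counting error only.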

Additional observations from a re-analysis of the deposited data

How the results depend on the processing

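Of the values recomputed under another choice, 74 moved by less than the spread between libraries (counts by less than 1.5 times) and 11 by more. With at least 3 counts in every library, 170 entries were kept in place of 330. With entries numbered 1000 or above left out of the total, miR-21a had 13.7%, the 10 most abundant miRNAs 59.2%, the let-7 family 28.2%, the miR-183/miR-96/miR-182 cluster 14.5% and the miR-30 family 7.55%, and the effective number was 35.2, since the total was smaller. No value could be had for the share of the entries left out. The mean correlation between libraries was 0.909 with a prior count of 0.5 and 0.971 with at least 10 counts in every library.

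Leaving out each library in turn gave 288 to 311 entries, 11.4% to 11.7% for miR-21a, 55.2% to 56.7% for the 10 most abundant, 38 to 40 miRNAs holding 90%, an effective number of 39.4 to 40.8, 23.3% to 24.7% for the let-7 family, 11.7% to 13.1% for the miR-183/miR-96/miR-182 cluster, 14.2% to 16.1% for entries numbered 1000 or above and 6.21% to 6.67% for the miR-30 family. The biological coefficient of variation was 0.304 to 0.373, lowest without library 1, and the correlation 0.942 to 0.962, highest without library 1. The correlations without a library were added after seeing the data. Thinning was not run for the effective number or the number of miRNAs holding 90%. No paired analysis was possible because no groups were compared and the columns are not tied to the labels' replicate numbers. With 64118 to 130905 counts, a count of 0 in a single library allows a level of up to 22.9 to 46.8 CPM.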
